A study of Mus musculus with 36 samples.

Results

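The expressed Zfp genes are the mouse genes whose symbol is Zfp followed by a number and whose RNA was at a set level in B cells before transdifferentiation. The symbol names a zinc finger protein and is given by structure, not by function. The members were chosen by their measured level: the mean of the authors' log2 normalised counts over the 6 libraries at 0 hr post-induction (hpi) had to be 7 or more, and Zfp36, whose product has another kind of finger, was left out. Of the 333 Zfp genes in the log2 tables, 187 met this rule and 146 did not, and the whole tables hold 19067 genes. The last members inside the threshold were Zfp169 (mean log2 level 7.01), Zfp790 (7.04) and Zfp27 (7.11), and the first genes outside it were Zfp949 (6.999), Zfp60 (6.97) and Zfp94 (6.97). Because the rule read all libraries at 0 hpi, levels at 0 hpi and changes from 0 hpi are given here as descriptions without a test, and only comparisons among later timepoints were tested.

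The cells were B cells from the bone marrow of C57BL/6J mice, infected with a retrovirus that carries C/EBPα fused to the estrogen receptor (ER) together with the surface marker hCD4. C/EBPα is a myeloid transcription factor, and the fusion keeps it inactive until 17β-estradiol (E2) is added, after which the cells turn from B cells into macrophages (BMT). The 3 constructs were C/EBPα wild-type (WT), C/EBPαR35A, with alanine in place of arginine 35, and C/EBPαR35K, with lysine there. Cells of each construct were collected before E2 (0 hpi) and at 5 later times (1, 3, 6 and 18 hpi, then 120 hpi) with 2 replicates, which gives 18 groups and 36 RNA-seq libraries. Every group, 0 hpi included, had been infected, enriched for hCD4-positive cells and kept on inactivated mouse embryonic fibroblasts, with IL-7 per the labels and further cytokines per the study's methods, which also give a later medium that lacks IL-7. Feeders were then depleted by adherence to culture dishes before RNA extraction. The ages of the mice are not given in the sources used here, and neither is whether the replicates came from separate mice, so p-values measure the spread between these libraries. The retroviral copies of C/EBPα are expressed on top of the cells' own genes, and the infected cells are a population rather than a clone. The R35K libraries came as separate tables, so their values are set beside those of WT and R35A without a test between them.

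Most Zfp proteins carry C2H2 zinc fingers, short folds held by a zinc ion that stand in tandem and together read a stretch of DNA. The largest subfamily adds a KRAB box, which recruits the corepressor Trim28 and, through it, the histone methyltransferase Setdb1, heterochromatin proteins and DNA methylation, and these KRAB proteins are best known for silencing transposable elements and for keeping imprints. Other members activate promoters, act on RNA or work at the mitotic spindle, and a few oppose or assist the factors that set lymphoid and myeloid fate.

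The total count per library ranged from 13044456 to 23131776, and replicates differed little (common biological coefficient of variation 3.17% in the fit of the WT and R35A libraries and 3.49% for R35K). The cell type labels were checked with 4 lists of marker genes, as summed normalised counts. The 8 B cell markers summed to 56580 in WT cells at 0 hpi and to 2086 at 120 hpi, and the 8 macrophage markers rose from 1157 to 338500. The 9 fibroblast markers, which the feeder layer expresses, were present in every group and were far from constant. They summed to 46440 in WT cells at 0 hpi, to 120200 at 18 hpi and to 3617 at 120 hpi, with 98340 and 12060 in R35A cells and 74140 and 9751 in R35K cells at 18 and 120 hpi. Among them Lum was at 0 counts in all libraries at 120 hpi. The 8 cycling-cell markers summed to 50130, 31030, 6230 and 12960 in WT cells at 0, 1, 18 and 120 hpi. These values are repeated beside the results they move with.

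By structure the members are mostly classic C2H2 proteins. In GENCODE vM21 185 of them are protein coding, Zfp125 is a pseudogene and Zfp469 is annotated as a lincRNA (chr8:122269569-122272650 of mm10, plus strand). In the longest annotated translations, 63 members have a KRAB box by a fixed pattern and at least 2 fingers, 109 have at least 2 fingers and no match to that pattern, and 13 have fewer than 2 canonical fingers. A wider KRAB pattern, chosen after the first was seen to miss variant boxes such as that of Zfp57, gives 78 and 94. The number of fingers ranged from 0 to 36 with a median of 10, and the KRAB members had a median of 12. The genes lie on 20 chromosomes, 41 of them on chromosome 7 and 22 on chromosome 17, and 94 have another member within 500 kb. In the annotation 37 overlap another gene on the same strand and 66 on the opposite strand, and neighbours of this family can be similar in sequence. Reads shared by similar or overlapping genes could have been split or dropped by the authors' counting.

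RefSeq (GRCm38.p6) gave 192 promoters, 250 bases before to 50 bases after the start, for 152 of the 187 members. They had a median of 17 CpG dinucleotides, against 21 in the promoters of the other genes at the same 0 hpi level and 7 in all 32851 promoters. Here and below, other genes at the same 0 hpi level are the 9658 others that met the threshold of 7. They were not matched to the members above it. On either strand, GGGCGG (the GC box) was present in 51.6% of member promoters, 65.6% of promoters at the same level and 35.7% of all promoters. CCGGAAGT (an ETS site) was present in 10.9%, 8.77% and 3.89%, AAGATGGC (a YY1 site) in 5.73%, 4.77% and 2.75%, TCGCGA in 6.77%, 5.08% and 2.5%, and GCGCATGC (an NRF1 half-site) in 6.77%, 5.45% and 2.71%. Member promoters held each of these motifs at a share nearer to that of other expressed genes than to that of all promoters.

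The 200 bases before the start are shown for 4 members to which the results below return, written 5′ to 3′ on the strand of the gene, with the motif named for each in capitals and any match of another motif left in lower case. They are Zfp334, among the deepest late falls (chr2:165388260-165388459, minus strand, GCGCATGC on both strands, overlapping itself to GCGCATGCGC), Zfp263, which separated WT from R35A cells at 120 hpi (chr16:3743899-3744098, plus strand, CCGGAAGT), Zfp367, an early fall (chr13:64153200-64153399, minus strand, TCGCGA), and Zfp207, the member at the highest level per kb (chr11:80383079-80383278, plus strand, AAGATGGC). A match describes the letters and does not show that a factor binds there.
Zfp334: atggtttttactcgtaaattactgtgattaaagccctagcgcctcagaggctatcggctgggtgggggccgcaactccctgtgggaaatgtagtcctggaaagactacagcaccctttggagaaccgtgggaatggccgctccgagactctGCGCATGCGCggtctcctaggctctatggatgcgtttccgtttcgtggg
Zfp263: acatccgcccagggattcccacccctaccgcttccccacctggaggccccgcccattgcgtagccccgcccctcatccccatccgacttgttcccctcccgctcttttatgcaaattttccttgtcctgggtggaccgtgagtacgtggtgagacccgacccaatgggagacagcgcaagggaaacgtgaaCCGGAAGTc
Zfp367: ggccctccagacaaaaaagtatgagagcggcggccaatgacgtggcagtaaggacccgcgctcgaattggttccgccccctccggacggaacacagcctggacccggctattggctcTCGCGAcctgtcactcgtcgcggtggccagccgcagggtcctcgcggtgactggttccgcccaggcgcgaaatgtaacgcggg
Zfp207: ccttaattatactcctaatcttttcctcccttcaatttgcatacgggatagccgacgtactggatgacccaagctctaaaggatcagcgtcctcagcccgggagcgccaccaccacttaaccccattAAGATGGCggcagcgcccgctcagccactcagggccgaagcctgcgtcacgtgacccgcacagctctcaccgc

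At 0 hpi the members were of middling abundance. Their mean normalised count at 0 hpi ranged from 128.8 to 4440, with a median of 391.6. Per kb of exon, the highest were Zfp207 (47.1 CPM per kb), a spindle protein that loads the checkpoint factor Bub3 onto kinetochores, Zfp706 (34.9), Zfp445 (30.5), a KRAB protein that guards imprints, Zfp740 (29.1) and Zfp869 (28.6). Before E2 the constructs were alike for these genes. The difference in log2 level from WT had a median of −0.02 for R35A (range −0.28 to 0.35) and 0.00 for R35K (−0.25 to 0.32), and 0 of the 187 members differed by 1.5-fold. Together the members took 0.847% to 0.859% of all counts in WT libraries at 0 hpi and 0.499% to 0.512% at 120 hpi. The share also fell in R35A libraries, from between 0.844% and 0.855% to between 0.461% and 0.467%. In R35K libraries it fell from between 0.851% and 0.865% to between 0.490% and 0.514%. A share of all counts also depends on the other genes. The macrophage marker Lyz2 alone went from a mean normalised count of 554.8 to 182100 in WT cells over the same time. The share is therefore not a measure of the members' own level.

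From 0 hpi onward the typical member went down in all 3 constructs and was lowest at 120 hpi. In WT cells the median log2 change from 0 hpi was −0.11 after 1 hr, between −0.14 and −0.16 after 3 and 6 hr, −0.28 after 18 hr and −0.60 after 120 hr. R35A cells stood at −0.23 already at 1 hpi and ended at −0.59, and R35K cells went from −0.22 to −0.53. Other genes at the same 0 hpi level had medians of −0.15, −0.12 and −0.14 at 120 hpi in WT, R35A and R35K cells. At that timepoint 96 members (51.3%) were lower than at 0 hpi by 1.5-fold or more in WT cells and 12 (6.42%) were higher, against 34.0% and 23.6% of the other genes. In R35A cells the counts were 95 and 12, and in R35K cells 83 and 11. The lowest timepoint was 120 hpi for 100 members in WT, 103 in R35A and 105 in R35K cells, and the highest was 0 hpi for 83, 107 and 106. Among the members that is 53.5%, 55.1% and 56.1% lowest at 120 hpi and 44.4%, 57.2% and 56.7% highest at 0 hpi, beside 39.9%, 38.3% and 40.3%, and 28.1%, 32.1% and 34.0%, of the other genes. The 0 hpi level chose the members, so these counts are a description. In a bulk library, fewer cells of a type and less RNA per cell cannot be told apart.

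**Figure D1:**
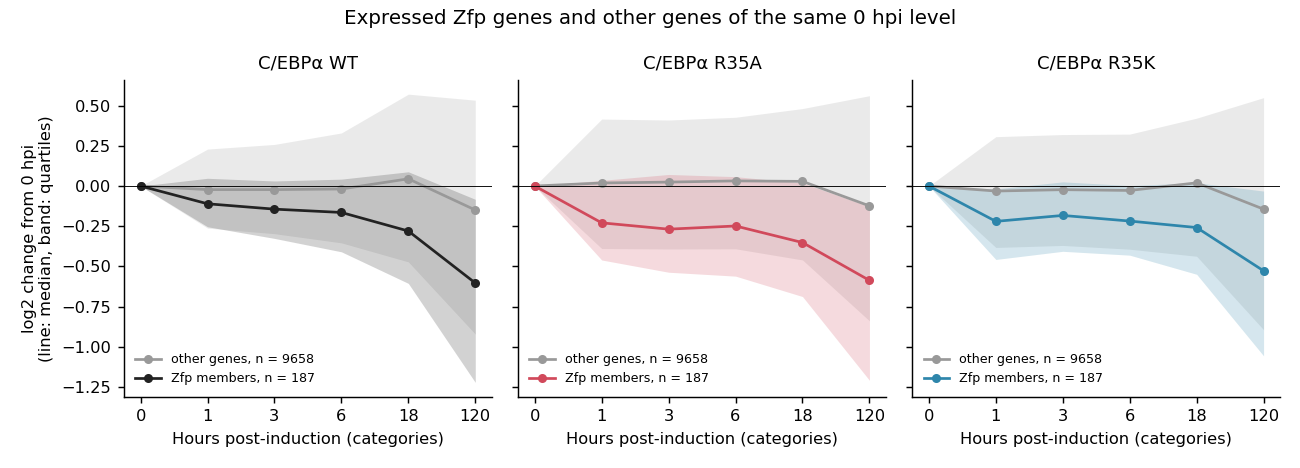
Log2 change from 0 hpi (y axis) at each timepoint (x axis, hr post-induction as equally spaced categories). The 187 Zfp members are in colour and the 9658 other genes that met the same 0 hpi threshold are in grey. There is 1 panel per construct, with lines for medians and bands for quartiles. The members' median sank to −0.60 in WT, −0.59 in R35A and −0.53 in R35K cells at 120 hpi, below that of the other genes, and at 1 hpi it was lower in both mutants than in WT cells.

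The late step, from 18 to 120 hpi, shares no library with the rule and was tested. A member was called when it changed by 1.5-fold or more with an adjusted p of 0.05 or less, by edgeR's quasi-likelihood test adjusted over all genes. In WT cells 66 of 187 members (35.3%) fell, against 33% of all genes tested, and 31 (16.6%) rose, against 27.5%. In R35A cells 60 fell (32.1%, all genes 29.4%) and 15 rose (8.02%, all genes 24.5%), and in R35K cells 57 fell (30.5%, all genes 28.5%) and 19 rose (10.2%, all genes 24.7%). The share that fell was near that of all genes, and the wider gap was among the genes that rose. Among other genes at the same 0 hpi level, 27.3%, 23.8% and 22.3% rose in WT, R35A and R35K cells, and 28.5%, 24.8% and 24.2% fell. The members' median log2 fold change was −0.25, −0.13 and −0.21, against −0.09, −0.06 and −0.06 over all genes tested. These counts moved with the filter on low counts. With at least 10 counts required in every library of a group, 58 members fell and 37 rose in WT cells. In R35A cells 45 fell and 22 rose, and in R35K cells 57 fell and 19 rose. No share of all genes stands beside the counts under this filter. Without any 1 of the 4 WT libraries the WT median was −0.15 to −0.08, and that of all genes was 0.01 to 0.03. Without any 1 of the 4 R35A libraries the R35A median was −0.09 to −0.03, and that of all genes was 0.02 to 0.05.

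Of the members, 50 fell in all 3 (26.7%, against 23.7% of genes tested in both fits), which is 75.8% of those that fell in WT, 83.3% of those in R35A and 87.7% of those in R35K cells. Only 11 rose in all 3 (5.88%, against 19.4% of genes tested). A fall in at least 1 construct was called for 74 members (all genes 38%) and a rise for 38 (all genes 33.1%), which are 39.6% and 20.3% of the members. There were 75 members (40.1%) called in none of the 3 constructs, against 29.5% of all genes.

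**Figure D2:**
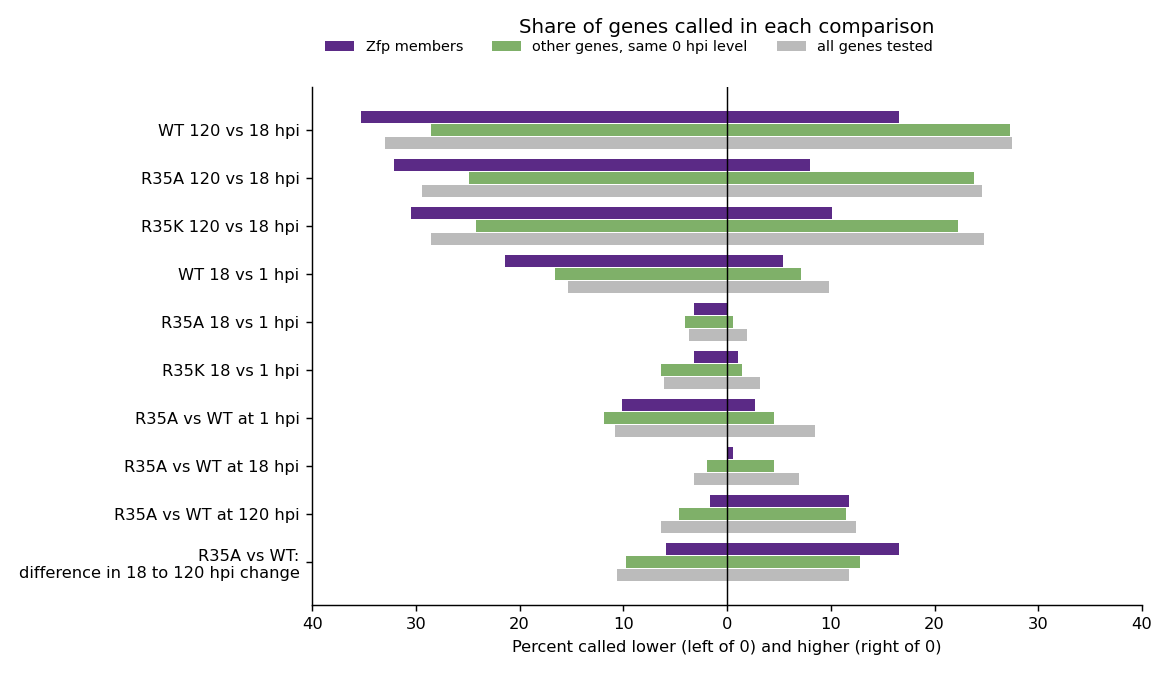
Percent of genes called lower (left of 0) and higher (right of 0) in the 10 comparisons without 0 hpi libraries. Bars are for the Zfp members, for other genes that met the same 0 hpi threshold and for all genes tested. In the 3 late comparisons the members' bars to the left are about as long as those of all genes (35.3% against 33% in WT cells), while those to the right are shorter (16.6% against 27.5%).

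The deepest late falls were those of Zfp521, Zfp334, Zfp827, Zfp469, Zfp697, Zfp618, Zfp37 and Zfp462, whose RNA was plentiful at 18 hpi and scarce at 120 hpi in every construct. Zfp521, a cofactor that antagonises the B cell factor Ebf1 and is also active in mesenchymal cells, was at normalised counts of 496.4 and 473.1 in the WT libraries at 18 hpi and 1.36 and 1.47 at 120 hpi, which is 1 read in each library. R35A libraries went from 448.6 and 421.6 to 0 and 0 reads, at least 119-fold lower when set against 3 reads per library, and R35K libraries from 350.7 and 330.2 to 2.54 and 3.73. As a ratio of counts, the WT fall was 342-fold (95% interval 94.4 to 2828, exact binomial, counting error only) and the R35K fall 109-fold (46.3 to 335). In no library before 120 hpi was Zfp521 under 285.4 normalised counts.

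Zfp334, whose promoter is printed above, was at 821.4 and 810.1 in WT libraries at 18 hpi and at 4.09 and 2.95 at 120 hpi, a 230-fold fall (98.5 to 710) on 3 and 2 reads. The R35A libraries fell from 665.8 and 648.3 to 5.18 and 0, and the R35K libraries from 608 and 582 to 1.27 and 3.73. Before that fall the gene had gone up, from 430.4 and 376.4 at 0 hpi in WT cells, so its loss at 120 hpi followed a climb.

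The remaining deep falls had the same shape with more reads left at 120 hpi. Zfp462, a large nuclear protein with 33 fingers in its translation, was at 633 and 638.2 in WT libraries at 18 hpi and at 23.2 and 26.5 at 120 hpi (log2 fold change −4.69 ± 0.13 SE, adjusted p = 8.68e-35). It kept more RNA in R35A libraries, at 71.2 and 85.0, and in R35K libraries, at 63.5 and 57.1. The SE given with a log2 fold change was worked out from that change and the test's F statistic. It may be too narrow where few reads remain. Zfp827 went from 536.6 and 524.3 to 15.0 and 7.37 in WT libraries, and was at 32.4 and 31 in R35A and 34.3 and 17.4 in R35K libraries at 120 hpi. The rule that named this group required every library at 120 hpi to be lower than any at 18 hpi of the same construct. The WT log2 fold changes of Zfp469, Zfp697, Zfp618 and Zfp37 were −5.49, −5.28, −4.95 and −4.81, and those in R35A cells were −4.23, −3.84, −3.41 and −2.87. Zfp697 spans 13 genes on the opposite strand (chr3:98382461-98753812 of mm10).

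Fibroblast markers moved with these falls. All 9 fell from 18 to 120 hpi in each construct, with a median log2 fold change of −5.48 in WT, −3.80 in R35A and −3.68 in R35K cells, and their sum was 33.2-fold lower in WT, 8.16-fold lower in R35A and 7.60-fold lower in R35K cells. The sum had also risen from 0 to 18 hpi, 2.59-fold in WT, 2.02-fold in R35A and 1.56-fold in R35K cells. Of the 66 members that fell in WT cells, 38 were at a higher level at 18 than at 0 hpi, 17 of them by 1.5-fold or more, and 9 were already lower by 1.5-fold. In R35A cells 26 of the 60 and in R35K cells 24 of the 57 were higher at 18 than at 0 hpi. The 0 hpi level chose the members, and the same counts were not made for other genes that fell late. They are therefore a description only. B cell markers fell over the same step, 6 of 8 in each construct, with medians of −4.81, −4.32 and −5.36 in WT, R35A and R35K cells, and 8 of 8 macrophage markers rose in each. The part of feeder RNA or of lost B cell identity in the late falls was not tested, and loss of feeder RNA and a fall within the induced cells cannot be told apart in these libraries.

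**Figure D3:**
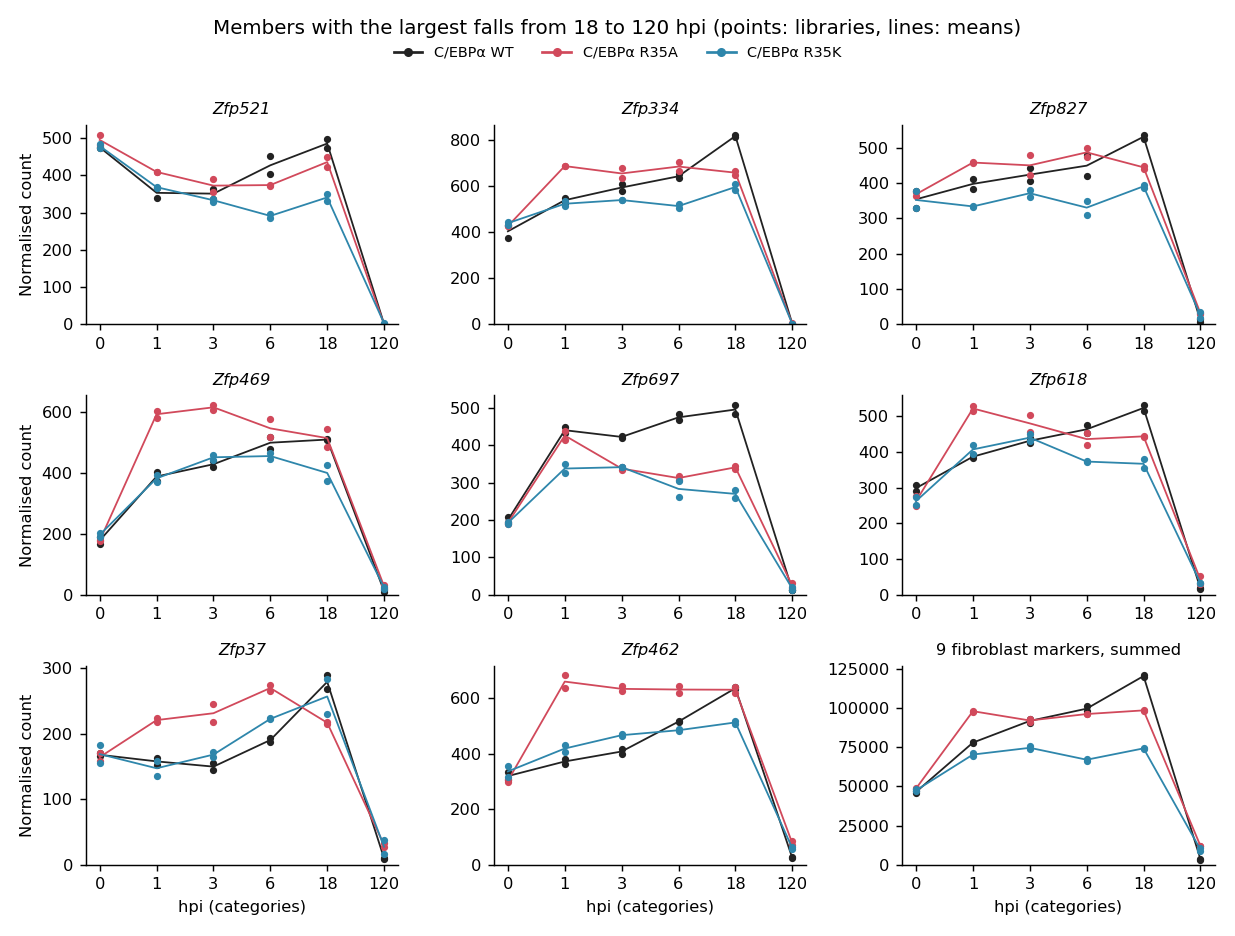
Normalised counts (y axes from 0) at each timepoint (x axis, hpi as categories) for the 8 members with the largest late falls, with points for libraries and lines for means, and in the last panel the summed counts of the 9 fibroblast markers. Zfp521 and Zfp334 end near 0 in all 3 constructs, Zfp462 keeps 23.2 to 85.0 normalised counts, and the fibroblast sum climbs to 18 hpi and drops at 120 hpi.

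Few members rose late, and the rises were smaller than the falls. Zfp710 went from 511.2 and 507.9 in WT libraries at 18 hpi to 3354 and 3040 at 120 hpi, a log2 fold change of 2.64 ± 0.055 (SE, adjusted p = 5.91e-41). In R35A libraries it reached 2348 and 2187 from 475.2 and 428.1, and in R35K libraries 2284 and 2339 from 662.9 and 698. WT libraries had held 687.8 and 680.8 at 0 hpi, so that Zfp710 first dipped and then rose past where it began.

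Zfp622, a factor in the late assembly of the large ribosomal subunit, rose late in each construct. WT libraries went from 1176 and 1172 at 18 hpi to 2525 and 2457 at 120 hpi (log2 fold change 1.07 ± 0.045), R35A libraries to 3230 and 2962 and R35K libraries to 3379 and 3324. Zfp277, which binds a ribosomal protein, rose with log2 fold changes of 1.55, 1.1 and 1.25 in WT, R35A and R35K cells. Zfp638, a nuclear RNA-binding protein that recruits silencing to retroviral DNA that has not integrated, rose by 0.76, 0.77 and 0.95 on the same scale.

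Several of the rises followed a dip. Zfp395 was at 683.6 and 681.9 normalised counts in WT libraries at 0 hpi, 231.8 and 203.7 at 18 hpi and 678.7 and 705.9 at 120 hpi, and Zfp41 went from 179.3 and 192 to 61.4 and 70.5 and back to 140.4 and 145.9. Zfp984, with a KRAB box, went from 289.1 and 281.5 to 113.3 and 100.4 and then to 299.8 and 328.7. The same dip and return was seen in R35A and R35K libraries, where Zfp395 ended at 519 and 451.2 and at 679.6 and 665.5. Zfp950 and Zfp120 had shallower dips and ended higher than they began, with WT log2 fold changes from 18 to 120 hpi of 1.61 and 1.16. Zfp169 (0.60, 0.59 and 0.66 in WT, R35A and R35K cells, and 0.58 in WT cells without replicate 1 of 120 hpi) and Zfp182, which lies outside the rule for named genes and was added to complete the 11, also rose in all 3 constructs. The cycling-cell markers had the same course, with their sum in WT cells falling from 50130 before E2 to 6230 after 18 hr and standing at 12960 after 120 hr, and 8 of 8 rose from 18 to 120 hpi in WT and in R35A cells and 3 of 8 in R35K cells. Their part in these rises was not tested.

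**Figure D4:**
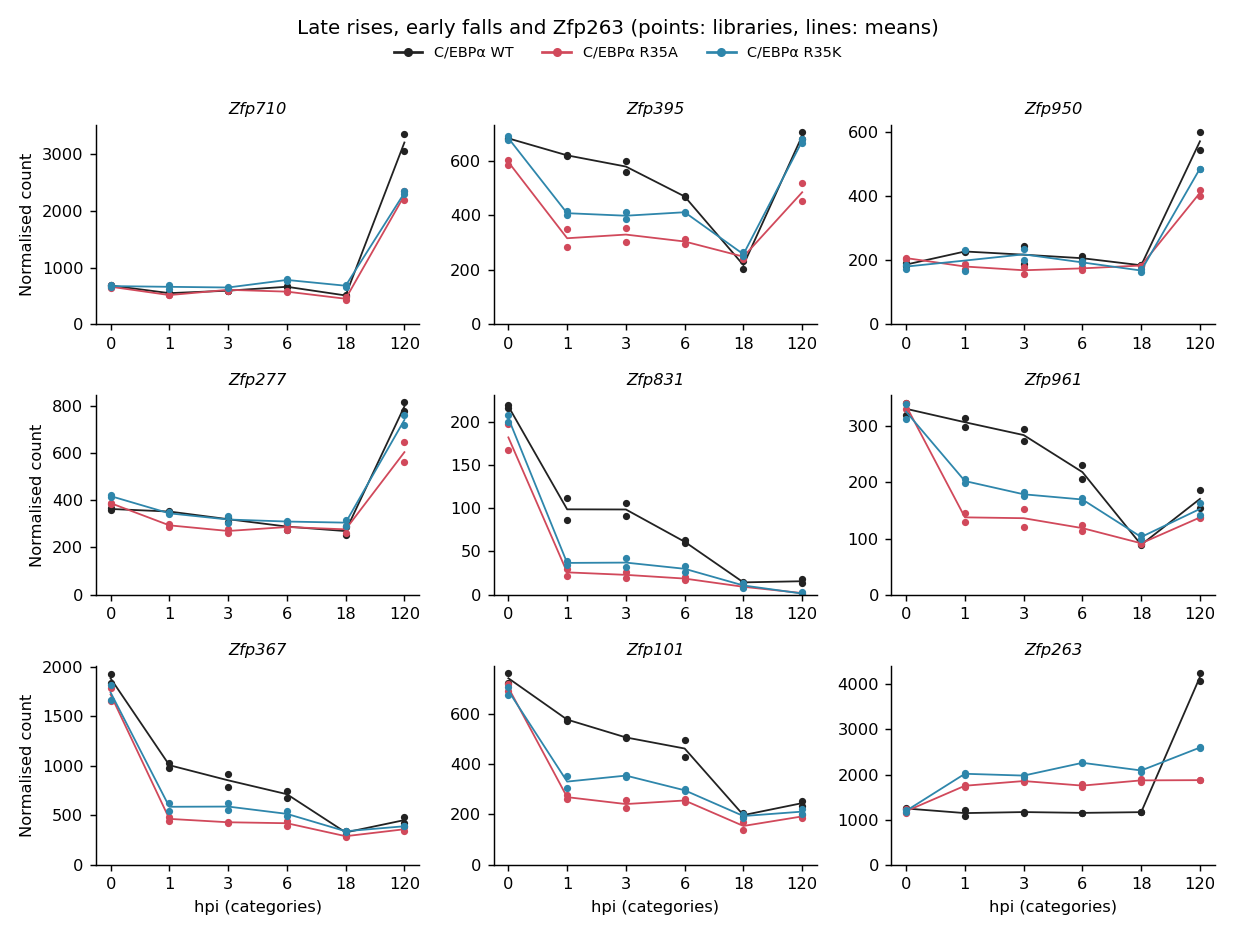
Normalised counts (y axes from 0) by timepoint (x axis, hpi as categories) for 4 members that rose late (Zfp710, Zfp395, Zfp950, Zfp277), 4 that fell early (Zfp831, Zfp961, Zfp367, Zfp101) and Zfp263, with points for libraries and lines for means. The early falls are lower in R35A than in WT libraries at 1 hpi and close together at 18 hpi, and Zfp263 reaches 4067 and 4255 in WT libraries at 120 hpi against 1873 and 1877 in R35A libraries.

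Between 1 and 18 hpi most of the calls were in WT cells. In WT cells 40 members fell (21.4%, all genes 15.4%) and 10 rose (5.35%, all genes 9.83%), with a median log2 fold change of −0.26 against 0.00 over all genes. R35A cells had 6 members lower (3.21%, all genes 3.68%) and 0 higher (all genes 1.94%), and R35K cells 6 lower (3.21%, all genes 6.12%) and 2 higher (1.07%, all genes 3.15%). By edgeR without a fold threshold, 67 members were lower (all genes 12.7%) and 4 higher (all genes 13.2%) in R35A cells at 18 than at 1 hpi, and 6 were higher at an unadjusted p under 0.05. DESeq2 called 7 lower and 0 higher. The difference between the constructs over this interval was not itself tested, and the direct comparison at 1 hpi is given next.

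At 1 hpi fewer members than all genes were higher in R35A than in WT cells, and the share lower was near that of all genes. In R35A cells 19 were lower (10.2%, all genes 10.8%) and 5 higher (2.67%, all genes 8.51%), with a median difference of −0.19 against −0.01 over all genes. Among other genes at the same 0 hpi level 11.9% were lower and 4.53% higher. With DESeq2's size factors the split was 17 lower and 8 higher. At 18 hpi edgeR called 0 members lower (all genes 3.17%) and 1 higher (0.535%, all genes 6.9%), which was Zfp263. At 18 hpi without a fold threshold 33 members were lower (all genes 14.4%) and 6 higher (all genes 16.9%), and 43 were lower at an unadjusted p under 0.05 (all genes 18.5%). DESeq2 also called 0 lower.

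Zfp367 was among the early differences with many reads. In WT libraries it went from 1930 and 1836 normalised counts at 0 hpi to 1029 and 982.3 at 1 hpi and 313.3 and 340.8 at 18 hpi, while R35A libraries were at 481.1 and 446.3 at 1 hpi and R35K libraries at 546.7 and 624.9. The difference between R35A and WT at 1 hpi was −1.19 ± 0.069 on the log2 scale (adjusted p = 1.17e-20), and at 18 hpi it was −0.13 ± 0.092 (adjusted p = 0.333). Zfp101, a KRAB protein, showed the same course, with 579.4 and 572.3 in WT and 276.7 and 259.9 in R35A libraries at 1 hpi (−1.17 ± 0.080, adjusted p = 4.77e-18), as did Zfp961, with 299.5 and 314.9 against 130.3 and 145.1 (−1.23 ± 0.10, adjusted p = 3.52e-15). The rule that named these 3 genes required that the WT and R35A libraries not overlap at 1 hpi.

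Zfp831 fell furthest for its level. WT libraries held 219.4 and 216 normalised counts at 0 hpi, 111.2 and 86.1 at 1 hpi and 14.8 and 13.5 at 18 hpi, and R35A libraries were at 29.5 and 22.04 at 1 hpi, a log2 difference of −1.99 ± 0.19. Zfp395, named above for its return, was at 617.5 and 623.5 in WT and 349 and 283.7 in R35A libraries at 1 hpi. Zfp608, which restrains the recombinase genes in developing thymocytes, was at 1420 and 1319 against 877.4 and 835.6 (−0.75 ± 0.053).

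The 5 members that were higher in R35A than in WT cells at 1 hpi were Zfp503, Zfp462, Zfp57, Zfp28 and Zfp516. Zfp503, a corepressor of the NET family, was at 626.6 and 613.4 against 318 and 347.2 (0.82 ± 0.074), and Zfp516, a driver of the brown fat program, at 1135 and 1122 against 654.6 and 734.7 (0.62 ± 0.052, and 0.54 and no longer called without WT replicate 1 of 1 hpi). Zfp57, which protects imprinted methylation, was at 316 and 282.8 against 185.3 and 166.9. These genes had risen by 18 hpi in WT cells too, where 642.5 and 642.1 were counted for Zfp503 and 282.6 and 317.7 for Zfp57.

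Other marker lists moved with these early differences. From 1 to 18 hpi in WT cells all 8 cycling-cell markers and all 8 B cell markers fell, with sums 4.98-fold and 4.83-fold lower, while in R35A cells the sums fell 1.76-fold and 2.30-fold and in R35K cells 2.05-fold and 2.65-fold. At 1 hpi all 8 cycling-cell and all 8 B cell markers were lower in R35A than in WT cells, with median differences of −1.48 and −1.73. All 8 macrophage markers were higher in R35A than in WT cells at 1 hpi (median 1.88) and at 18 hpi (median 1.99). The fibroblast sum went from 77820 to 120200 between 1 and 18 hpi in WT cells, with 2 markers lower and 1 higher, and from 97810 to 98340 in R35A cells, and at 1 hpi 2 of its 9 markers were higher in R35A cells and 0 lower. The part of cell division, of the change from B cell to macrophage or of feeder RNA in the early differences was not tested.

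At 120 hpi the calls were mostly higher in R35A cells, at a share near that of all genes. Of the members 3 were lower in R35A than in WT cells (1.60%, all genes 6.38%) and 22 higher (11.8%, all genes 12.4%), while the median was −0.01, with 94 members below 0 and 93 above. Among other genes at the same 0 hpi level 4.66% were lower and 11.4% higher, and without a fold threshold 47 members were lower (all genes 19%) and 50 higher (all genes 27%). Without R35A replicate 2 of 120 hpi, 6 were lower. For the difference in the 18 to 120 hpi change, 11 members were lower in R35A (5.88%, all genes 10.6%) and 31 higher (16.6%, all genes 11.7%). The fibroblast markers again moved alongside, with 7 of 9 higher in R35A than in WT cells at 120 hpi (median 1.61), and 7 of 9 higher for the difference in change (median 1.69), and their part in these calls was not tested.

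Zfp263 was lower in R35A than in WT cells at 120 hpi, while the fibroblast markers were higher there, and their part was not tested. WT libraries held 1161 and 1170 normalised counts at 18 hpi and 4067 and 4255 at 120 hpi (log2 fold change 1.82 ± 0.043, adjusted p = 2.91e-38). In R35A libraries the gene had gone from 1140 and 1235 at 0 hpi to 1769 and 1733 by 1 hpi and then stayed at 1842 and 1897 at 18 hpi and 1873 and 1877 at 120 hpi. R35K libraries were at 1996 and 2035 at 1 hpi, 2061 and 2117 at 18 hpi and 2584 and 2611 at 120 hpi. R35A cells were above WT cells by 0.74 ± 0.045 at 18 hpi and below them at −1.12 ± 0.042 at 120 hpi, and the difference in the 18 to 120 hpi change was −1.85 ± 0.061 (adjusted p = 1.29e-30).

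Zfp608 and Zfp831 were the other members lower in R35A cells at 120 hpi. Zfp608 was at 1359 and 1244 in WT and 660 and 629.2 in R35A libraries (−0.98 ± 0.062), with R35K at 781.2 and 797.1. Zfp831 rested on 22 reads in the WT and 3 in the R35A libraries, an 8.54-fold difference with a 95% counting interval of 2.56 to 44.5. Upward, Zfp365, a protein linked to neurites and to genome stability, was at 81.8 and 97.3 in WT against 299 and 376.6 in R35A libraries (1.96 ± 0.12), and R35K libraries were at 282 and 228.5. It had fallen from 1960 and 1985 in WT and 1407 and 1425 in R35A libraries at 18 hpi, so that the difference in change was 2.38 ± 0.13. Zfp462 and Zfp37 followed, with differences of 1.69 and 1.64 at 120 hpi. Zfp365, Zfp462 and Zfp37 all fell from 18 to 120 hpi in every construct, and so did the fibroblast markers. The part of feeder RNA in these values was not tested.

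The KRAB members are set beside the other finger proteins by counts, without a test between the groups. From 1 to 18 hpi in WT cells 25 of the 63 KRAB members fell (39.7%, all genes 15.4%) and 1 rose (1.59%, all genes 9.83%), with a median of −0.46, against 13 lower (11.9%) and 7 higher (6.42%) of the 109 without a match, with a median of −0.16. In R35A cells over this step 3 KRAB members were lower (4.76%, all genes 3.68%) and 0 higher, against 3 (2.75%) and 0. In R35K cells 2 were lower (3.17%, all genes 6.12%) and 0 higher, against 3 (2.75%) and 1. At 1 hpi 10 KRAB members were lower in R35A than in WT cells and 1 higher (15.9% and 1.59%, all genes 10.8% and 8.51%), with a median of −0.33, against 7 and 3 (6.42% and 2.75%), with a median of −0.16. From 18 to 120 hpi in WT cells 21 KRAB members fell (33.3%, all genes 33%) and 10 rose (15.9%, all genes 27.5%), with a median of −0.08. Those without a match had 40 lower (36.7%) and 19 higher (17.4%), with a median of −0.35. In R35A cells 15 KRAB members (23.8%) fell late against 40 (36.7%, all genes 29.4%), and in R35K cells 14 (22.2%) against 38 (34.9%, all genes 28.5%). By the wider pattern these shares were closer, at 28.2% against 35.1% in R35A and 26.9% against 33.0% in R35K cells. The wider pattern gave medians of −0.44 and −0.15 for the early fall and −0.23 and −0.26 for the late fall, so the gap between the late medians was wide under the fixed pattern and narrow under the wider one. The 13 members with fewer than 2 fingers had 2 lower and 2 higher from 1 to 18 hpi and 3 lower and 2 higher from 18 to 120 hpi in WT cells.

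**Figure D5:**
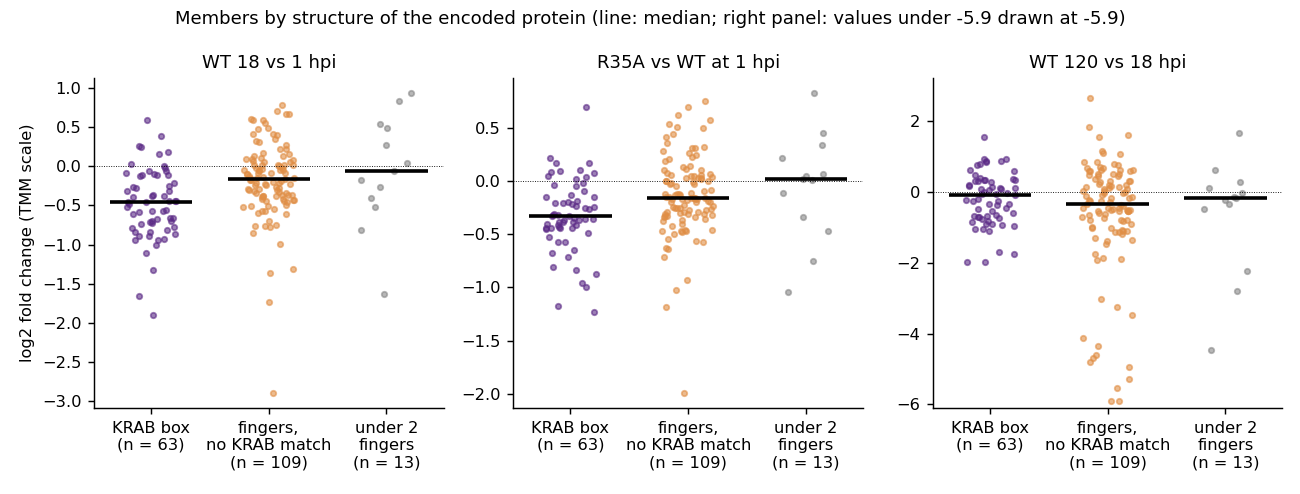
Log2 fold change (y axis) of every member with an annotated translation, by structure of the protein (x axis), from 1 to 18 hpi in WT cells, between R35A and WT cells at 1 hpi, and from 18 to 120 hpi in WT cells, with 1 point per gene and a bar for the median. The KRAB members centre on −0.46, −0.33 and −0.08 and the finger proteins without a KRAB match on −0.16, −0.16 and −0.35.

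Among KRAB proteins with a known target, the late step differed from gene to gene. Zfp57 fell, from 282.6 and 317.7 to 32.7 and 31.0 in WT libraries (log2 fold change −3.25 ± 0.16, adjusted p = 3.94e-24), to 80.2 and 75.8 in R35A and to 66.1 and 63.3 in R35K libraries. Zfp445, which shares the imprint-guarding role of Zfp57, was at 2118 and 2164 in WT libraries at 18 hpi and 2904 and 3105 at 120 hpi, 0.47 ± 0.040 on the log2 scale and below the fold threshold, although without either replicate of 18 hpi or replicate 1 of 120 hpi it was past it. It had fallen from 1 to 18 hpi in WT cells (−0.67 ± 0.038, adjusted p = 5.16e-21). Zfp809, which silences murine retroviruses through their primer binding site, was at 352.5 and 357.2 and then 181.2 and 255 (−0.72 ± 0.11, adjusted p = 1.49e-07), a call lost without WT replicate 1 of 120 hpi. Its log2 fold changes in R35A and R35K cells were −0.46 and −0.50, below the fold threshold.

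The partners of the KRAB box moved in both directions. Trim28 itself had log2 fold changes from 18 to 120 hpi of −0.47, −0.46 and −0.52 in WT, R35A and R35K cells. Each had an adjusted p of 1.2e-13 or less and a size under 1.5-fold. Trim28 had dropped before this step as well, with mean normalised counts of 6861, 3636 and 2652 in WT cells at 0, 18 and 120 hpi. Of the 25 genes on the corepressor list 3 fell (12%, all genes 33%) and 9 rose (36%, all genes 27.5%) in WT cells, 3 fell and 7 rose in R35A cells (12% and 28%, all genes 29.4% and 24.5%) and 2 fell and 3 rose in R35K cells (8% and 12%, all genes 28.5% and 24.7%). Setdb1, the methyltransferase that Trim28 recruits, rose by 1.09 ± 0.050 in WT cells. The DNA methyltransferases Dnmt1, Dnmt3a and Dnmt3b rose there by 1.00, 1.55 and 0.79. At 0, 18 and 120 hpi in WT cells Setdb1 was at 1160, 798.3 and 1720 normalised counts and Dnmt3a at 1050, 769.4 and 2269. Dnmt1 was at 6800, 1209 and 2451 and Dnmt3b at 191, 44.6 and 77.3, so both ended below their 0 hpi level. The listed genes that fell from 18 to 120 hpi in WT cells were Mta1 (−0.73), Mphosph8 (−0.79) and Cbx3 (−0.63). At 1 hpi 5 genes of the list were lower in R35A than in WT cells (20%, all genes 10.8%) and 0 higher (all genes 8.51%), the 5 being Uhrf1 (−1.55), Dnmt1 (−1.33), Dnmt3b (−0.98), Cbx5 (−0.82) and Cbx1 (−0.65). From 1 to 18 hpi 6 fell (24%, all genes 15.4%) and 0 rose (all genes 9.83%) in WT cells. Uhrf1 and Dnmt1 serve methylation at replication. The cycling-cell markers moved the same way in these comparisons, and the part of cell division in them was not tested.

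Several named members with other roles had late changes under 1.5-fold. Zfp143 and Zfp148, activators of housekeeping and GC-rich promoters, had WT log2 fold changes of 0.19 and 0.11, Zfp281 0.17 and Zfp326, a splicing factor, −0.14. Zfp207 had its larger change earlier, from 4732 and 4575 normalised counts in WT libraries at 1 hpi to 2994 and 3187 at 18 hpi (−0.70 ± 0.038, adjusted p = 6.05e-22), and was at 2873 and 2871 at 120 hpi. Zfp318, which directs the splicing of IgD, had log2 fold changes of 0.21, 0.16 and 0.19 from 18 to 120 hpi in WT, R35A and R35K cells and was at 549.2 to 721.4 normalised counts in all libraries at 120 hpi. Zfp91, a ubiquitin ligase of the non-canonical NF-κB pathway, was at 0.30, −0.19 and −0.01, and Zfp62 at 0.35 (0.60 and called without WT replicate 2 of 18 hpi), 0.14 and −0.13.

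A few of these regulators did pass the threshold. Zfp384 rose in WT cells, from 847.8 and 813 to 1500 and 1407 (0.80 ± 0.056, adjusted p = 4.31e-18), with 0.47 in R35A cells (0.67 and 0.63 and called without replicate 2 of 18 hpi or replicate 1 of 120 hpi) and 0.29 in R35K cells. Zfp106, an RNA-binding protein of motor neurons, rose by 0.67 in WT and 0.65 in R35K cells, with 0.51 in R35A cells (0.61 to 0.63 and called without any of the 4 R35A libraries), and Zfp217, a component of CoREST repressor complexes, by 0.60 in WT (0.54 without a filter on low counts) and 0.64 in R35K cells, with 0.49 in R35A cells (0.59 to 0.62 and called without either replicate of 18 hpi or replicate 1 of 120 hpi). In R35A cells Zfp131 fell, from 1090 and 992 to 652.3 and 665.9 (−0.69 ± 0.060, and −0.52 and −0.57 without replicate 1 of 18 hpi or of 120 hpi), with −0.29 in WT and −0.47 in R35K cells. Zfp608 rose in WT cells (0.62 ± 0.057, and 0.56 without a filter on low counts) and was at −0.11 in R35A and −0.22 in R35K cells. Zfp335, a subunit of histone methyltransferase complexes, was at 0.49, 0.34 and 0.29, and in WT cells at 0.60, 0.62 and 0.70 and called without replicate 1 or 2 of 18 hpi or replicate 2 of 120 hpi.

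A pair of well-known genes of the same symbol lie outside the members. Zfp36, the mRNA-decay factor tristetraprolin, went the other way from the typical member, from 2897 and 2953 normalised counts in WT libraries at 18 hpi to 28080 and 27100 at 120 hpi (3.22 ± 0.037), with 2.17 and 2.36 in R35A and R35K cells. Zfp296, a partner of pluripotency factors whose mean log2 level at 0 hpi was 5.74, fell with −1.82, −1.55 and −2.05.

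Position was examined for chromosome 7, which holds the most members. Its 41 members had a median log2 fold change of −0.52 from 18 to 120 hpi in WT cells, with 18 lower (43.9%, all genes 33%) and 3 higher (7.32%, all genes 27.5%). Chromosome 5, with 11 members (54.55% lower and 9.09% higher), and chromosome 4, with 8 members (50% lower and 12.5% higher), had lower medians of −0.72 and −1.08. So did chromosomes 10, 1 and 14, with 2, 3 and 3 members and medians of −2.19, −0.82 and −0.53. Among the members on chromosome 7, 8 neighbours between positions 29768552 and 30169750 of mm10 were singled out after their values were seen, so they are described only. Zfp568, the KRAB protein that represses a placental promoter of Igf2, was at 934.6 and 942.4 normalised counts in WT libraries at 18 hpi and 595.5 and 573.3 at 120 hpi, while R35A libraries went from 737.2 and 760.4 to 995.3 and 941.4 and R35K libraries from 673 and 759.5 to 947.6 and 1001. The groups did not overlap and moved in opposite directions, with a difference in change of 1.03 ± 0.080 (adjusted p = 7.06e-16), although the WT fall (−0.70) dropped under the fold threshold without either replicate of 18 hpi or replicate 2 of 120 hpi. Its neighbours Zfp84 and Zfp790 differed in the same sense (0.94 ± 0.15 and 1.02 ± 0.19), Zfp260 fell in all 3 constructs (−1.92, −1.51 and −1.06), and Zfp382 differed the other way (−0.72 ± 0.18). The whole set of 8 had medians of −0.53 in WT, 0.19 in R35A and −0.07 in R35K cells. Reads shared among such neighbouring copies may have been lost to counting.

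Other zinc finger families were read with the same fits. From 18 to 120 hpi in WT cells 13 of 37 tested Zbtb genes fell (35.1%, all genes 33%) and 3 rose, with a median of −0.39, and 8 of 21 tested Zscan and Zkscan genes fell (38.1%) and 2 rose, with a median of −0.46. Of the Zfp genes under the level threshold 138 could be tested, and 56 of them fell (40.6%) and 32 rose, with a median of −0.45. In R35A cells the same low Zfp genes had 40 lower (29.0%, all genes 29.4%) and 36 higher (26.1%, all genes 24.5%), with a median of −0.05. In R35K cells they had 41 lower (30.4%, all genes 28.5%) and 43 higher (31.9%, all genes 24.7%) of 135, with a median of 0.09. Of the expressed Zfp genes, 8.02% rose in R35A and 10.2% in R35K cells, so the low share of rises was not seen in the low Zfp genes of the mutants. It was seen in the other families, where 5.41% of the Zbtb genes rose in R35A and 8.11% in R35K cells. For the Zscan and Zkscan genes these shares were 9.52% and 5%. The share that rose in WT cells was thereby 8.11% of the Zbtb genes, 9.52% of the Zscan and Zkscan genes and 23.2% of the low Zfp genes, beside 16.6% of the expressed Zfp genes and 27.5% of all genes. These shares were not tested against each other.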

How the data were processed

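RNA-seq was made from 36 libraries, 2 replicates in each of 18 groups. The authors sequenced stranded poly(A) RNA as single reads and, per the labels and their methods, aligned them to mm10 with STAR 2.5.0a, which gave the deposited raw counts per gene. The authors then normalised them with DESeq2 1.14.1 and deposited log2 values, which equal log2 of the normalised count plus 1. The annotation release and the strand column used for counting are not given in the sources used here. STAR counts reads that map to 1 place, so similar paralogues can lose reads. The study's methods call the 2 replicates biological, and the labels do not say that they were separate animals or cultures.

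The deposited counts were tested with edgeR 4.0.16 (quasi-likelihood, TMM, filterByExpr) in R 4.3.3, in 1 fit of the 24 WT and R35A libraries (16988 genes tested) and 1 of the 12 R35K libraries (16434). A call needed 1.5-fold and a Benjamini-Hochberg adjusted p of 0.05 or less over all genes tested. Each SE is the absolute log2 fold change divided by the square root of the F statistic. It is not a fitted standard error and is approximate for large changes on few reads. All 187 members were tested in both. Normalised counts are the deposited log2 values turned back. DESeq2 1.42.0, other thresholds and filters, a replicate block and leaving out each library were alternatives. The fits were tested on simulated data. KRAB boxes and fingers were read by pattern from translated GENCODE vM21 transcripts. The members, gene lists and tests were chosen with earlier results of these data known. Named genes were the 8 largest falls and rises called in all 3 constructs with replicates of the timepoints not overlapping, the 5 highest per kb at 0 hpi, the largest differences between R35A and WT cells (5 in each direction at 1 hpi and 3 at 120 hpi, not overlapping), the 3 nearest the threshold on each side, and a list with known roles. No column was left unused.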

Additional observations from a re-analysis of the deposited data

Results flagged for a closer look

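These results were singled out because the change from 18 to 120 hpi differed between R35A and WT cells by the interaction term of the edgeR fit, adjusted over all genes. Of the 187 members, 11 were lower and 31 higher in R35A for this difference. Among the named genes with positive differences, Zfp365 had 2.38, Zfp37 1.95, Zfp827 1.71, Zfp462 1.65, Zfp618 1.54, Zfp697 1.45, Zfp57 1.33, Zfp469 1.25, Zfp568 1.03, Zfp790 1.02, Zfp503 0.61 and Zfp27 0.60 on the log2 scale. Negative differences were −2.39 for Zfp831, −1.85 for Zfp263, −0.74 for Zfp984, −0.73 for Zfp395, −0.73 for Zfp608 and −0.67 for Zfp516. The 9 fibroblast markers had a median of 1.69 for the same difference, and their part in these values was not tested.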

How the results depend on the processing

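Of 1389 recomputed values for named genes, 1349 kept their direction and side of the threshold, 22 became and 18 ceased to be calls, and 0 reversed. Counts of members moved mainly with the fold threshold, given here as lower and higher. No share of all genes stands beside them, so they show only how the counts moved and not how members compare with other genes. At 2-fold they were 41 and 9 from 18 to 120 hpi in WT cells, 28 and 6 in R35A cells and 38 and 8 in R35K cells. From 1 to 18 hpi they were 10 and 0 in WT, 1 and 0 in R35A and 1 and 0 in R35K cells. Between R35A and WT cells they were 6 and 0 at 1 hpi, 0 and 0 at 18 hpi, 2 and 10 at 120 hpi, and 2 and 16 for the difference in change. With no fold threshold, the late counts were 99 and 57 in WT, 89 and 51 in R35A and 89 and 53 in R35K cells. From 1 to 18 hpi the counts were 105 and 31 in WT, 67 and 4 in R35A and 35 and 21 in R35K cells. Between R35A and WT cells they were 101 and 26 at 1 hpi, 33 and 6 at 18 hpi, 47 and 50 at 120 hpi, and 39 and 50 for the difference. A level threshold of 6 gave late counts of 86 and 46 in WT, 71 and 30 in R35A and 69 and 37 in R35K cells. A level threshold of 8 gave late counts of 47 and 22 in WT, 44 and 8 in R35A and 39 and 12 in R35K cells. From 1 to 18 hpi it gave 27 and 6 in WT, 3 and 0 in R35A and 4 and 1 in R35K cells. Between R35A and WT cells it gave 12 and 3 at 1 hpi, 2 and 11 at 120 hpi and 9 and 17 for the difference. DESeq2's test and its size factors each gave 17 lower and 8 higher at 1 hpi. Leaving out 1 library gave 21 to 24 late rises in R35A cells, 6 to 8 members higher at 1 hpi, 1 to 2 higher at 18 hpi and 3 to 6 lower at 120 hpi. DESeq2's size factors moved the median of all genes from 1 to 18 hpi in WT cells by 0.10. The same-numbered replicates did not deviate together over 153 pairs of groups (r from −0.42 to 0.26, 9 above 0.1), so they were not treated as pairs, and with a replicate block the late counts were 14 higher in R35A and 58 lower in R35K cells. The cause of these shifts was not tested. Members with few reads at 120 hpi, such as Zfp521, Zfp334 and Zfp831, are limited by depth.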
